A study of Mus musculus with 96 samples.

Results

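This report describes 10 genes of major histocompatibility complex (MHC) class I presentation in mouse forebrain, cerebellum, liver and kidney, with and without sleep deprivation. The genes are the heavy chains H2-K1, H2-D1, H2-Q4, H2-Q6 and H2-Q7, the light chain B2m, the regulator Nlrc5, the peptide transporter subunit Tap1, the immunoproteasome subunit Psmb8 and the peptidase Erap1. They were taken by symbol from the 54833 features of the count table, and all 10 were found. They were chosen by their values in this comparison, counts of sleep-deprived against control animals in these same libraries. Every difference between those conditions is therefore given for them as a description, and no result is read from a test of it. Tests are given for what the choice did not use, which is the level in different tissues of control mice and the 24 h rhythm within a condition. Other genes of the same pathway are also tested. Those tests use the same comparison in the same libraries, and the lists were written with earlier results known. They are therefore not independent of the choice.

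The study used male wild-type C57BL/6 mice aged 6 to 8 weeks that lived in a light and dark cycle and were then sampled in constant darkness. Control mice (CON) were left undisturbed. The mice called SD, for sleep deprivation, spent 10 h of their resting phase walking in a slowly turning drum with food and water present. SD mice therefore differed from CON mice in housing and in walking as well as in sleep, and these cannot be told apart. The 10 h is time in the drum, and no measure of the sleep lost is given. All SD mice were in the drum over the same hours of the day and were sampled at the times that followed. In SD mice circadian time and time since the drum therefore cannot be told apart. Each of the 4 tissues was taken at circadian times (CT) CT4, CT8, CT12, CT16, CT20 and CT24, and 2 replicates per time and condition gave 96 libraries in 48 groups. The study describes the replicates as biological, and the labels do not say which tissues came from the same animal. Total RNA was depleted of ribosomal RNA and sequenced with its strand kept. The libraries held 24760295 to 58486579 counted fragments, fewest in cerebellum and most in kidney. Levels are given as CPM, the count of a gene divided by the total count of its library and scaled by the same factor in all libraries.

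Cells show fragments of their own proteins to T cells on MHC class I molecules, each made of a heavy chain and the light chain beta-2-microglobulin. The proteasome cuts proteins into peptides, the transporter TAP carries them into the endoplasmic reticulum, an aminopeptidase trims them there, and a loading complex places them in the groove of the heavy chain. Interferons raise the genes of this route together, partly through NLRC5, which acts at the promoters of class I genes. Nearly all nucleated cells carry class I molecules, with low levels in neurons.

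On GRCm38 the heavy chains lay on chromosome 17, with H2-K1 at 33996017 to 34000347 on the minus strand. The other 4 lay on the plus strand, H2-D1 at 35262730 to 35267499, H2-Q4 at 35379617 to 35385290, H2-Q6 at 35424850 to 35430055 and H2-Q7 at 35439155 to 35443773. Tap1 (34187553 to 34197225) and Psmb8 (34197721 to 34201454) were neighbours on the same chromosome. B2m lay on chromosome 2 (122147686 to 122153083), Nlrc5 on chromosome 8 (94434356 to 94527272) and Erap1 on chromosome 13 (74639568 to 74693201).

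The proximal promoters of the 5 heavy chain genes are shown as a description of their sequence. RefSeq promoter windows on GRCm38.p6, 300 bases around a start site and mostly upstream of it, were used for 9 of the 10 genes, all but Nlrc5. Each line below holds 70 bases read 5′ to 3′ on the strand of the gene. The capitals mark the letters GGGATTCCC, a kappa B core at which NF-kappa B factors can bind, and TTTCACTTC, which read on the other strand fits the interferon response core GAANNGAAA.
H2-K1, chr17:34000403-34000472, minus strand: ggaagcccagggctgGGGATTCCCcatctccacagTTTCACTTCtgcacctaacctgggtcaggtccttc
H2-D1, chr17:35262909-35262978, plus strand: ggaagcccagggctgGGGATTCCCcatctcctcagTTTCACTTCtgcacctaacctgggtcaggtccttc
H2-Q4, chr17:35379429-35379498, plus strand: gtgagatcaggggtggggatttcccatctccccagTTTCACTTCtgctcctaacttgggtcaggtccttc
H2-Q6, chr17:35424663-35424732, plus strand: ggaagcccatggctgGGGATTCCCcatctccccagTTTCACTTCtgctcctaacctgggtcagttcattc
H2-Q7, chr17:35439007-35439076, plus strand: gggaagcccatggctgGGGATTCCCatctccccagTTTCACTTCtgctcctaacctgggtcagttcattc

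Counted from the start site, the stretch covered -125 to -56 in H2-K1 and -188 to -119 in H2-Q4. The stretches of H2-K1 and H2-D1 were the same at 69 of 70 bases, and those of H2-K1 and H2-Q4 at 61 of 70. Searched on both strands, the interferon response core occurred in the windows of all 5 heavy chains and in 7.52% of 32851 RefSeq promoter windows. The kappa B core occurred in those of H2-K1, H2-D1, H2-Q6 and H2-Q7 and in 0.353% of all windows. Only these exact letters were searched, so the similar letters gggatttccc in the stretch of H2-Q4 were not counted. Nor were gaaactgaaa in the window of B2m and tttcactttc in that of Erap1, which resemble the interferon response core. The count of that core and the 7.52% therefore hold only for the form searched. They do not show that the other members lack an interferon site. The CCAAT box, to which NF-Y binds, was found for 7 of the 9 genes and in 37.4% of all windows, and TGACG, the core of a site for CREB factors, for 6 of 9 genes and in 20.8% of all windows. H2-K1 had 2 windows and the other 8 genes 1 each. A match of letters describes a sequence and says nothing of a factor bound there, and the motifs were chosen after these promoters had been read.

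Some limits of the counts touch these genes. The authors kept only fragments with a mapping quality of 60, so reads shared by near-identical copies are lost. Of all 100-base windows of the transcripts, 11.98% in H2-Q7, 10.8% in H2-Q6, 3.59% in H2-D1, 2.16% in H2-Q4 and 0.957% in H2-K1 also occurred in another gene, against 0 in the other members, so the values of H2-Q6 and H2-Q7 are uncertain. The row of B2m held 0 to 78 counts per library, although B2m encodes the partner of every class I heavy chain and H2-K1 reached 1771 CPM in liver. That row cannot stand for the level of B2m, and the cause was not tested. H2-Q4, Nlrc5, Tap1, Psmb8 and Erap1 overlap a gene on the opposite strand, and the counting by strand separates such pairs in libraries that preserve strand information.

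1 library stood apart by its strand. In the first CON replicate of cerebellum at CT8, the counts of antisense genes came to 22.2% of those of the coding genes they overlap, against 4.73% to 10.5% in the other 95 libraries. It was the lowest of the 12 CON cerebellum libraries for H2-K1, H2-D1, H2-Q6, Psmb8 and Erap1. The first SD liver replicate of CT16 had a log2 TMM factor of 0.23, against -0.17 to -0.05 in the other 11 SD liver libraries, and without it the liver median of the members was -0.48. In kidney, 20 of 24 libraries carry a title that differs from their characteristics in condition or time. The titles were used, since the columns of the count table repeat them. The other 4 libraries are too few to give kidney values on their own. Markers of the labelled tissue were present in each case. In CON libraries the summed level of 6 hepatocyte genes had a median of 78146 CPM in liver against 479 CPM in kidney, and that of 7 kidney epithelium genes 18348 CPM in kidney against 0.623 CPM in liver. Genes of forebrain neurons summed to 3958 CPM in forebrain and 481 in cerebellum.

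In CON mice the class I genes were expressed at very different levels in the 4 organs. Liver was highest and kidney second for 9 of the 10 genes by the mean CPM, and the brain regions were far below. H2-K1 had a mean of 1533 ± 149 CPM in liver, 459 ± 123 in kidney, 22.02 ± 5.01 in forebrain and 16.7 ± 5.28 in cerebellum (SD, n = 12 each). The step from forebrain to liver was 6.72 ± 0.17 on the log2 scale (SE, adjusted p = 3.81e-35), that from kidney to liver 2.28 units (liver to kidney -2.28 ± 0.14, adjusted p = 1.05e-19). These tests were edgeR quasi-likelihood tests in the 48 CON libraries with TMM scaling, and the adjustment by Benjamini-Hochberg ran over all genes.

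All 10 genes passed the threshold in all 6 pairs of tissues, where 68.6% of all genes passed between liver and kidney, 70.3% between forebrain and cerebellum, 84.9% between forebrain and kidney, 85.9% between forebrain and liver, 87.1% between cerebellum and kidney and 87.8% between cerebellum and liver. The median difference of the 10 genes was 5.09 log2 units between forebrain and liver, 3.67 between forebrain and kidney and -1.53 from liver to kidney. These counts and medians include the sparse row of B2m. The smallest step from liver to kidney was that of H2-Q6, whose CPM means were 18.2 ± 3.74 in liver and 19.3 ± 2.70 in kidney. Its difference was -0.44 ± 0.15 with TMM factors (adjusted p = 0.00685) and 0.075 with library sizes alone (adjusted p = 0.671), so the order of liver and kidney for H2-Q6 depends on the scaling. H2-Q4 likewise missed the threshold for this pair with library sizes alone (-0.19, adjusted p = 0.111).

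H2-D1 was the exception to the order in the brain. Its level was 64.1 ± 8.31 CPM in cerebellum and 32.4 ± 5.27 CPM in forebrain, a difference of 0.83 ± 0.10 log2 units (adjusted p = 2.37e-10), whereas the other 9 genes were lower in cerebellum than in forebrain. Apart from the sparse row of B2m, Psmb8 differed most, with -1.06 ± 0.19 (adjusted p = 2.81e-06). It rests on 8 to 35 counts per CON library in cerebellum and 27 to 71 in forebrain. The differences of Nlrc5 (-0.36 ± 0.16, adjusted p = 0.0389) and Tap1 (-0.34 ± 0.15, adjusted p = 0.0397) were small. Without the cerebellum library that stood apart these 2 genes missed the threshold (adjusted p = 0.0896 and 0.0725), and 8 of 10 remained. With library sizes alone H2-Q4, Nlrc5, Tap1 and Erap1 missed it and 6 of 10 remained.

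The classical heavy chains H2-K1 and H2-D1, which present peptides to cytotoxic T cells, changed rank between organs. Per kilobase of exon and within a library, the ratio of H2-K1 to H2-D1 had a median of 1.51 in CON liver, where it was above 1 in 12 of 12 libraries. It was 0.830 in kidney, 0.587 in forebrain and 0.234 in cerebellum, with 0 of 12 libraries above 1 in each. Psmb8 replaces Psmb5 in the immunoproteasome, the form of the proteasome that interferon induces. The ratio of Psmb8 to Psmb5 per kilobase was 0.176 in CON liver, 0.0621 in kidney, 0.00990 in forebrain and 0.00863 in cerebellum (medians of 12 libraries). Tap1 pairs with Tap2 to form the transporter, and their ratio per kilobase was 1.29 in liver, 0.636 in kidney, 0.387 in forebrain and 0.385 in cerebellum. The levels per library are plotted for the 10 genes by tissue and condition.

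**Figure D1:**
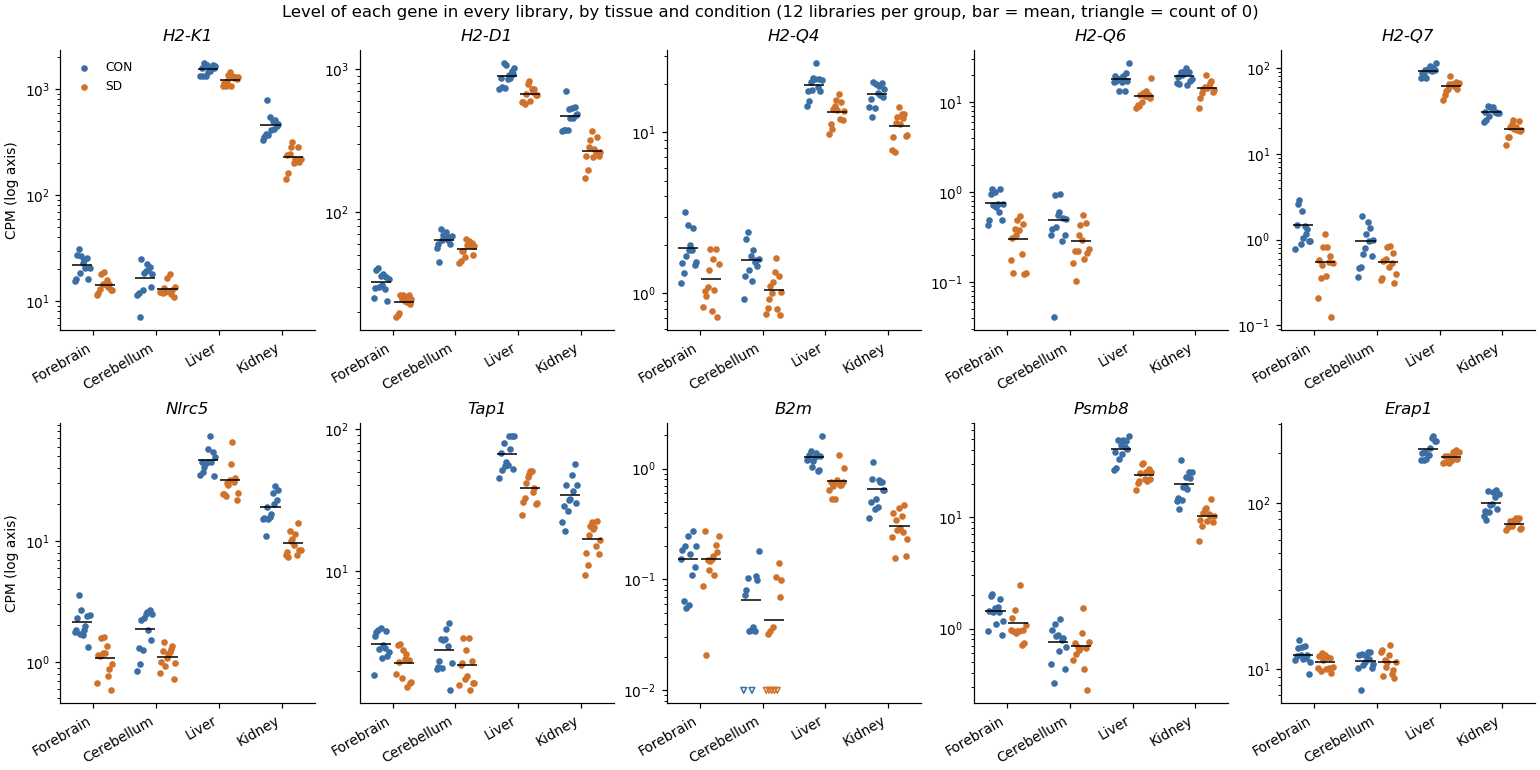
Levels of the 10 genes in all 96 libraries, in CPM on a log axis, with a panel for each gene and the tissues along the x axis. Each point is a library, blue for CON and orange for SD, a bar is the mean of 12 libraries, and an open triangle marks a count of 0. Liver and kidney lie far above the brain regions, and in kidney the SD points of H2-K1 (142 to 316 CPM) all lie below the CON points (329 to 785 CPM).

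Sleep deprivation went with lower counts of these genes, most in kidney. The values in this and the next paragraphs chose the genes and are given as they are, with no p for any gene. Counts of calls are given only beside the share of all genes. For groups that do not overlap, and for SD libraries below every CON library, the share of all genes was not computed. Nothing is read from those counts. Fold changes are from the edgeR fit of 1 tissue with time point as a factor, with their SE. The median log2 fold change of the tested members, SD minus CON, was -0.91 in kidney (10 tested), -0.61 in forebrain (9 tested), -0.47 in liver (10 tested) and -0.34 in cerebellum (9 tested), against medians over all genes between -0.01 and 0.01. B2m did not pass the filter on low counts in the brain regions, and its sparse row is part of the medians of liver and kidney. With library sizes alone the liver median was -0.60, and that of all liver genes -0.13.

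In kidney 10 of 10 members, the sparse row of B2m among them, were called at an adjusted p under 0.05. This stood beside 2.30% of all genes tested there and 2.12% in the lower direction. The calls numbered 8 of 10 in liver beside 18.2% (8.80% lower), 5 of 9 in forebrain beside 0.0303%, and 0 of 9 in cerebellum beside 0.0%. The cerebellum count was 0 with edgeR and with DESeq2, and 7 of the 9 had an unadjusted p under 0.05. The SD mean was below the CON mean at all 6 times for 10 genes in kidney (3.19% of all genes), 10 in liver (21.8%), 8 in forebrain (1.99%) and 5 in cerebellum (1.01%). Nothing is read from these counts, since the choice of the members rests on them. In bulk tissue fewer cells of a type and less RNA per cell cannot be told apart.

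H2-K1 in kidney ran from 329 to 785 CPM in CON, with a median of 434, and from 142 to 316 CPM in SD, with a median of 220. All 12 SD libraries lay below all 12 CON libraries. Its SD mean was 49.4% of the CON mean and its log2 fold change -1.04 ± 0.12. The CON library of CT8 replicate 2 held the highest value, 785 CPM beside 375 CPM in replicate 1, and without it the fold change was -0.94.

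The difference was present at each time but not the same. At CT4 the CON libraries held 349 and 329 CPM of H2-K1 and the SD libraries 238 and 142. At CT12 the ratio of SD to CON was nearest to 1, where CON held 369 and 541 CPM and SD held 316 and 286. At CT24 CON held 468 and 447 and SD held 221 and 205. Over the 10 genes the median log2 ratio of the SD to the CON mean in kidney was -0.42 at CT12 and between -0.76 and -1.01 at the other 5 times. In liver it was also nearest to 0 at CT12, with -0.32, and lowest at CT4, with -0.75. In forebrain the lowest median was that of CT8 (-0.91) and in cerebellum that of CT20 (-0.60). A time point rests on 2 libraries per condition, and these differences between times were not tested. In SD mice they also go with the time since the drum. The plot over circadian time shows the kidney values of each gene.

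**Figure D2:**
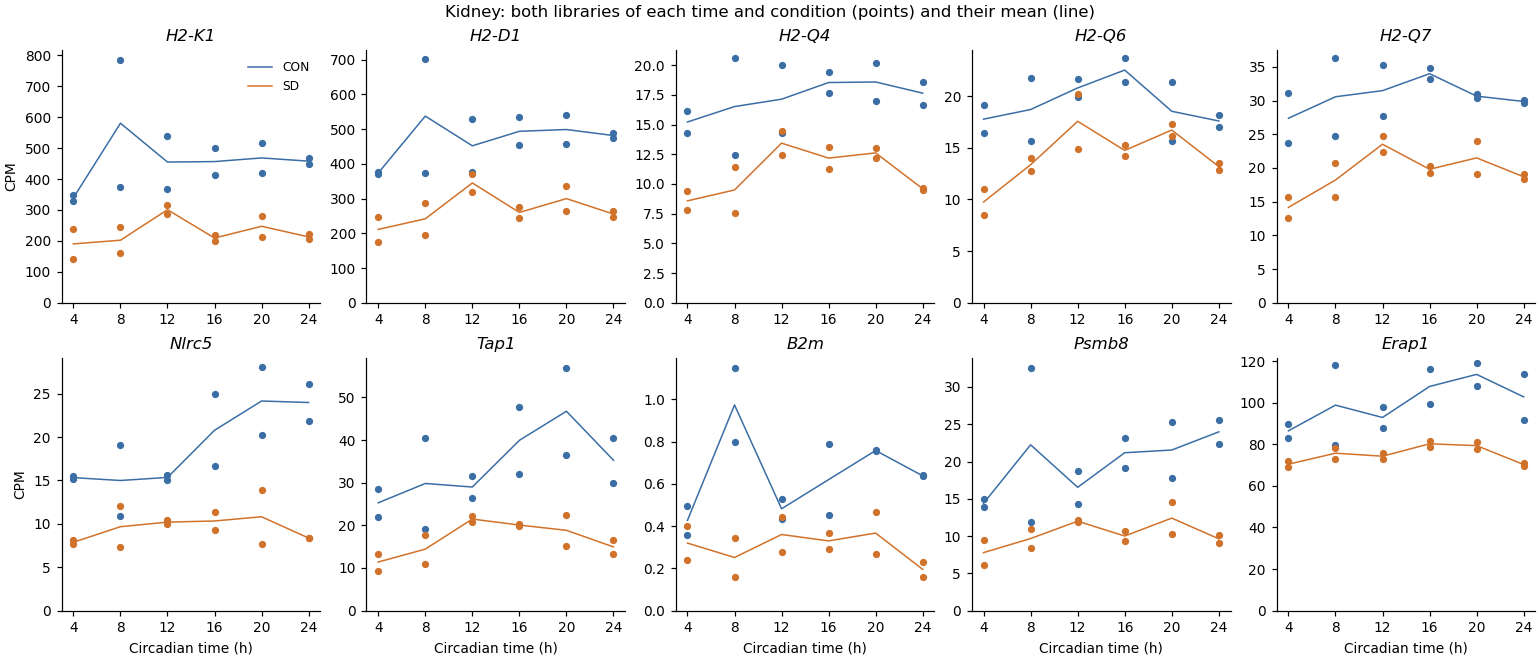
Kidney levels of the 10 genes in CPM (y axis) against circadian time in hours (x axis), with both libraries of each time and condition as points and their mean as a line, CON in blue and SD in orange. For H2-K1 and H2-D1 every SD point lies below every CON point, and the CON library of CT8 replicate 2 lies highest for H2-K1 at 785 CPM.

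H2-D1 in kidney lay between 371 and 702 CPM in CON, with a median of 466, and between 174 and 370 CPM in SD, with a median of 264. It was the other gene whose groups did not overlap, by a margin of about 1 CPM, and its log2 fold change was -0.85 ± 0.10. How many of all kidney genes separate in this way was not counted. The ratio of H2-K1 to H2-D1 per kilobase within a library had a median of 0.830 in CON and 0.731 in SD, so H2-K1 was lower by more than H2-D1. In liver H2-K1 had 1330, 1552 and 1771 CPM as lowest, median and highest CON value and 1057, 1251 and 1440 in SD. The groups overlapped, with 10 of 12 SD libraries below every CON library, and the log2 fold change was -0.18 ± 0.07 with TMM factors and -0.32 with library sizes. H2-D1 in liver went from a CON median of 890 CPM (722 to 1111) to an SD median of 665 CPM (574 to 825), a log2 fold change of -0.28 ± 0.08.

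In the brain regions the log2 fold changes of the classical chains were nearer to 0 than in kidney. In forebrain H2-K1 had a CON median of 21.7 CPM (15.5 to 30.9) and an SD median of 14.1 (11.5 to 18.7), a log2 fold change of -0.61 ± 0.07, and 9 of 12 SD libraries were below every CON library. H2-D1 there went from 32.4 CPM (24.03 to 40.3) to 24.1 CPM (18.3 to 26.4), or -0.47 ± 0.07. In cerebellum H2-K1 had a CON median of 18.3 CPM (7.03 to 24.9) and an SD median of 12.4 (10.96 to 18.0), and no SD library lay below every CON library. The lowest CON value was that of the library that stood apart. The log2 fold change of H2-K1 in cerebellum was -0.33 ± 0.14, and -0.40 without that library. H2-D1 in cerebellum changed least among the heavy chains, from 65.5 CPM (44.8 to 76.4) to 55.9 CPM (43.7 to 64.6), or -0.23 ± 0.06.

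The Qa-2 genes H2-Q6 and H2-Q7 encode nonclassical heavy chains, and H2-Q4 belongs to the same cluster. In forebrain H2-Q7 had 0.768, 1.24 and 2.91 CPM as lowest, median and highest value in CON and 0.124, 0.541 and 1.16 CPM in SD. Its log2 fold change of -1.39 ± 0.25 and that of H2-Q6, -1.33 ± 0.22, were the largest of the members in any tissue, but they rest on 4 to 102 counts per library. In cerebellum the same genes had -0.78 ± 0.20 and -0.80 ± 0.30. In kidney H2-Q7 went from 30.7 CPM (23.7 to 36.3) to 19.2 CPM (12.6 to 24.7), H2-Q6 from 19.5 CPM (15.7 to 23.7) to 14.1 CPM (8.50 to 20.2) and H2-Q4 from 17.3 CPM (12.4 to 20.6) to 11.3 CPM (7.55 to 14.4). In each of these the groups overlapped, H2-Q7 by the least, with 10 of 12 SD libraries below every CON library. The kidney log2 fold changes were -0.70 ± 0.07 for H2-Q7, -0.48 ± 0.08 for H2-Q6 and -0.69 ± 0.08 for H2-Q4. In liver they were -0.48 ± 0.07, -0.52 ± 0.10 and -0.44 ± 0.07.

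Nlrc5 encodes the transactivator of class I genes. In kidney it ran from 10.9 to 28.1 CPM in CON, with a median of 17.9, and from 7.28 to 13.9 CPM in SD, with a median of 8.84. 9 of 12 SD libraries were below every CON library, and the log2 fold change was -1.004 ± 0.11. In forebrain its median went from 1.92 CPM (1.33 to 3.56) to 1.13 CPM (0.583 to 1.602), or -0.98 ± 0.15, and in cerebellum from 2.05 CPM (0.841 to 2.71) to 1.13 CPM (0.730 to 1.47), or -0.75 ± 0.16. In liver 1 time stood out in both conditions. At CT16 CON held 73.9 and 57.4 CPM and SD held 65.0 and 43.0, whereas at CT24 CON held 34.3 and 49.2 and SD held 21.9 and 24.9. The 65.0 CPM came from the first SD replicate of CT16, whose log2 TMM factor of 0.23 stood apart from the other SD livers. The CON livers of CT16 had factors of 0.23 and 0.21, and CPM does not use these factors. The liver log2 fold change was -0.45 ± 0.07.

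Tap1 encodes a subunit of the transporter that brings peptides to the heavy chains. In kidney its median was 31.8 CPM in CON (19.1 to 56.9) and 17.2 CPM in SD (9.40 to 22.5), or -1.05 ± 0.12, and in liver 62.8 CPM (45.2 to 89.6) and 37.1 CPM (25.0 to 50.5), or -0.69 ± 0.12. The groups overlapped in both organs. Beside its partner, the ratio of Tap1 to Tap2 per kilobase in liver was above 1 in 12 of 12 CON libraries (median 1.29) and in 4 of 12 SD libraries (median 0.920). In kidney the median ratio was 0.636 in CON and 0.473 in SD. In forebrain Tap1 had -0.46 ± 0.12 and in cerebellum -0.34 ± 0.14, both with overlapping groups.

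Psmb8 encodes the immunoproteasome subunit that cuts peptides with ends favoured by class I. It went from 19.0 CPM (11.9 to 32.6) to 10.2 CPM (6.10 to 14.5) in kidney, a log2 fold change of -0.98 ± 0.13. In liver it went from 41.8 CPM (26.5 to 54.0) to 23.4 CPM (17.4 to 30.7), or -0.64 ± 0.10. The ratio of Psmb8 to Psmb5 per kilobase moved from 0.0621 to 0.0337 in kidney and from 0.176 to 0.104 in liver (medians of 12 libraries). In the brain the values overlapped widely, with -0.39 ± 0.17 in forebrain and -0.16 ± 0.21 in cerebellum.

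Erap1, which trims peptides in the endoplasmic reticulum, differed least. In kidney its median was 98.6 CPM in CON (79.5 to 119) and 74.4 CPM in SD (69.0 to 81.6), with 10 of 12 SD libraries below every CON library and a log2 fold change of -0.44 ± 0.05. In liver it was 202 CPM (183 to 255) in CON and 187 CPM (173 to 210) in SD. The liver fold change was -0.01 ± 0.05 with TMM factors and -0.15 with library sizes, so whether Erap1 was lower in liver depends on the scaling. In forebrain it was -0.15 ± 0.06 and in cerebellum -0.02 ± 0.07.

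The sparse row of B2m had 0.358 to 1.15 CPM in CON kidney and 0.157 to 0.465 CPM in SD kidney, with medians of 0.638 and 0.284. In liver it had 0.959 to 1.98 CPM in CON and 0.527 to 1.31 CPM in SD. These ranges overlap, and in kidney they rest on 6 to 44 counts per library. The log2 fold changes of the 10 genes are plotted for each tissue.

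**Figure D3:**
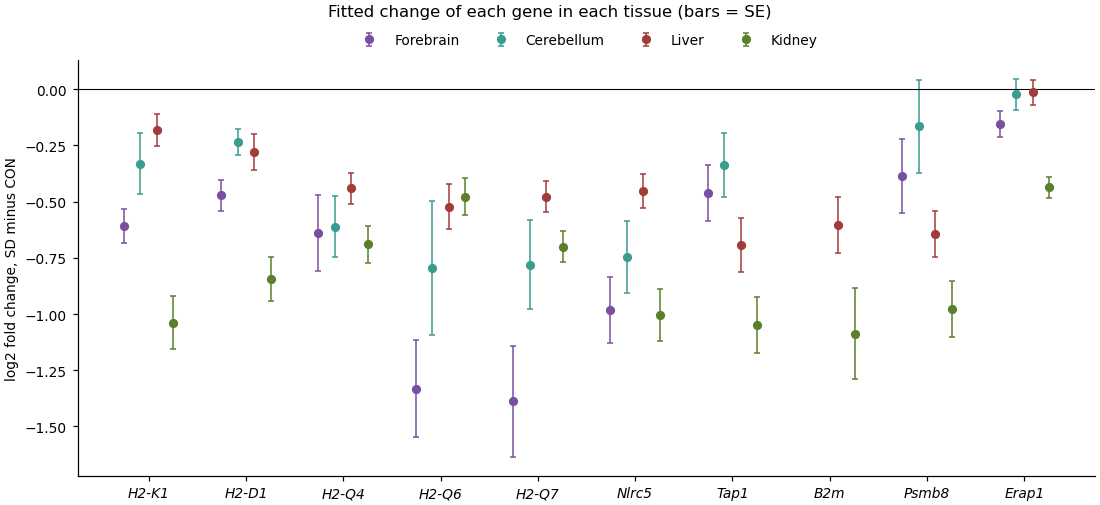
Log2 fold change of each of the 10 genes, SD minus CON, averaged over 6 times (y axis), for each gene (x axis), with a colour for each tissue. Points are the edgeR estimate and bars its SE. All kidney points lie between -1.09 and -0.44, the forebrain points of H2-Q6 and H2-Q7 lie lowest of all, and B2m is drawn for liver and kidney only.

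Within a condition, most members showed no 24 h rhythm that passed the test. The test was an edgeR fit of cosine and sine terms to the 12 libraries of a tissue and condition. In SD libraries it cannot tell a 24 h rhythm from a change with time since the drum. In SD liver Tap1 passed (adjusted p = 0.00246) with an amplitude of 0.36 log2 units and a peak at CT14.2, and Nlrc5 passed (adjusted p = 0.0152) with an amplitude of 0.42 and a peak at CT15.8. These are 2 of 10 members, where 12.9% of all genes passed. Both kept their call without each of the 12 libraries in turn. By JTK_CYCLE, the rank test used in the study, the adjusted p was 0.0397 for Tap1 and 0.0523 for Nlrc5.

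In CON liver Erap1 alone passed (adjusted p = 0.0332, amplitude 0.24, peak at CT22.6), 1 of 10 beside 9.13% of all genes, and it lost the call when any of 8 of the 12 libraries was left out (adjusted p up to 0.0909) and by JTK_CYCLE (0.121). Its libraries held 255 and 247 CPM at CT20 and 183 and 203 CPM at CT8. In CON kidney Nlrc5 passed (adjusted p = 0.0377, amplitude 0.42, peak at CT20.7), 1 of 10 beside 4.10%, and lost the call when any of 8 libraries was left out, with time as a factor (0.114) and by JTK_CYCLE (0.260). In SD kidney 0 of 10 passed, where 1.94% of all genes did, with an unadjusted p under 0.05 for 4 and a lowest adjusted p of 0.0699 (Tap1). The fitted peaks of all 10 in SD kidney lay between CT14.7 and CT16.4. In the brain regions 0 of 9 passed in CON forebrain (0.103% of all genes), SD forebrain (0.00447%), CON cerebellum (0.00465%) and SD cerebellum (0.0981%), with an unadjusted p under 0.05 for 2, 3, 0 and 4 of them, and JTK_CYCLE called 0 genes of any kind there. Whether a rhythm differed between CON and SD was not tested.

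The other genes of the pathway were tested for SD against CON as named lists, in the same libraries that chose the members. These lists were written with earlier results of these data known, so their counts are not independent of that choice. Of 88 tested pathway genes in kidney 32 fell, beside 2.12% of all genes, and 0 rose. Of 91 in liver 34 fell, beside 8.8% of all genes, and 4 rose. With library sizes alone the counts were 29 and 0 in kidney and 53 and 0 in liver. DESeq2 called 37 lower and 9 higher in liver, so the number that rose there depends on the scaling and the tool. It was 11 without the first SD liver replicate of CT16 and 2 without the first CON replicate of CT16 or the first SD replicate of CT12. In forebrain 0 of 84 and in cerebellum 0 of 83 passed with edgeR. There 19 and 7 had an unadjusted p under 0.05, and DESeq2 called 2 lower in forebrain and 0 in cerebellum. The adjusted p values below are from edgeR with Benjamini-Hochberg adjustment over all genes of the tissue.

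Of the other class I heavy chains 5 of 11 fell in liver and 4 of 10 in kidney, with a median log2 fold change of -0.44 and -0.38. In kidney H2-T23, which encodes Qa-1 and shows leader peptides to natural killer cells, fell from 100 ± 20.8 to 69.8 ± 7.30 CPM (-0.53 ± 0.08, adjusted p = 0.000229). H2-T10 fell by 0.60 log2 units (adjusted p = 0.000623) and H2-M3, which presents formylated peptides, fell by 0.45 (adjusted p = 0.0117). In liver H2-Q5 fell by 0.64 log2 units (adjusted p = 0.000236), H2-M3 by 0.53 (adjusted p = 0.000146) and H2-T10 by 0.48 (adjusted p = 0.00818). H2-Q5 and H2-T10 share 14.01% and 7.06% of their windows with copies and are uncertain.

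Of the class I-like molecules 1 of 5 passed in liver and 1 of 4 in kidney. Fcgrt, the neonatal Fc receptor, rose in liver (0.21 ± 0.05, adjusted p = 0.00659), and Hfe, which regulates iron uptake, fell in kidney (-0.21 ± 0.05, adjusted p = 0.0240). Neither passed with library sizes alone (adjusted p = 0.189 and 0.0677), and Hfe lost the call when any of 11 of the 24 kidney libraries was left out.

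Of 15 genes of peptide supply and loading 8 fell in kidney and 0 rose, and in liver 7 fell and 3 rose. Psmb9, the immunoproteasome subunit next to Tap1, fell from 13.99 ± 4.53 to 6.96 ± 1.56 CPM in kidney (-1.02 ± 0.13, adjusted p = 9.37e-05) and from 33.6 ± 9.98 to 18.5 ± 4.15 CPM in liver (-0.73 ± 0.12, adjusted p = 0.000309). Psmb10, the remaining inducible subunit, fell by 0.59 in kidney (adjusted p = 0.000242) and by 0.42 in liver (adjusted p = 0.000684). Tap2 fell by 0.62 in kidney (adjusted p = 9.37e-05). Tapbp, which encodes tapasin of the loading complex, fell by 0.37 in liver (adjusted p = 0.00168). The chaperones Calr (0.30 ± 0.06, adjusted p = 0.00201) and Canx (0.15 ± 0.05, adjusted p = 0.0286) and the cytosolic peptidase Thop1 (0.22 ± 0.07, adjusted p = 0.0282) rose in liver, and all 3 missed the threshold with library sizes alone. Of the constitutive proteasome core 0 of 14 genes passed with edgeR in any tissue, beside 2.30% of all genes in kidney and 18.2% in liver, with an unadjusted p under 0.05 for 4 in liver, 3 in kidney and 0 in each brain region, and their median log2 fold change was 0.07 in liver and -0.04 in kidney. With library sizes alone 2 of these 14 fell in liver.

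Of 23 class I regulators and genes of interferon signalling 9 fell in liver and 5 in kidney. In kidney Irf7, a factor of the type I interferon response, fell from 44.3 ± 16.4 to 21.8 ± 3.79 CPM (-1.005 ± 0.13, adjusted p = 9.37e-05). Ciita, which switches on MHC class II genes, fell by 0.90 in kidney (adjusted p = 0.000284) and by 1.06 in liver (adjusted p = 1.15e-05). Irf1, which drives class I genes after interferon, fell by 0.62 in kidney (adjusted p = 0.000445). Socs1, a brake on interferon signalling, fell by 1.39 in liver (adjusted p = 0.00207) at a level of 0.407 ± 0.1704 CPM in CON.

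Of the interferon-induced genes 14 of 21 fell in kidney and 13 of 22 in liver, and 0 rose. Cxcl10, a chemokine for activated T cells, fell from 6.54 ± 1.98 to 2.97 ± 0.892 CPM in kidney (-1.17 ± 0.15, adjusted p = 7.85e-05) and by 0.91 in liver (adjusted p = 0.00269). Bst2, which tethers viruses to the cell surface, fell by 0.93 in kidney (adjusted p = 0.000117), and Mx1, an antiviral GTPase, by 0.81 (adjusted p = 0.00153). In liver Cxcl9 fell by 1.02 (adjusted p = 0.000315) and Oasl2 by 0.73 (adjusted p = 6.58e-05). Of the 6 interferon ligands only Ifng passed the filter on low counts, in liver and kidney. It had 0.201 ± 0.0715 CPM in CON and 0.0835 ± 0.0772 in SD kidney (-1.25 ± 0.40, adjusted p = 0.129) and was not called. Over the 4 tissues the effect of SD differed for 13 of 92 pathway genes, beside 5.07% of all genes (edgeR). Without the cerebellum library that stood apart these were 21 pathway genes and 2157 genes in all against 1386, and with library sizes alone 22 and 2451. The fold changes of the pathway genes are plotted by list for liver and kidney.

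**Figure D4:**
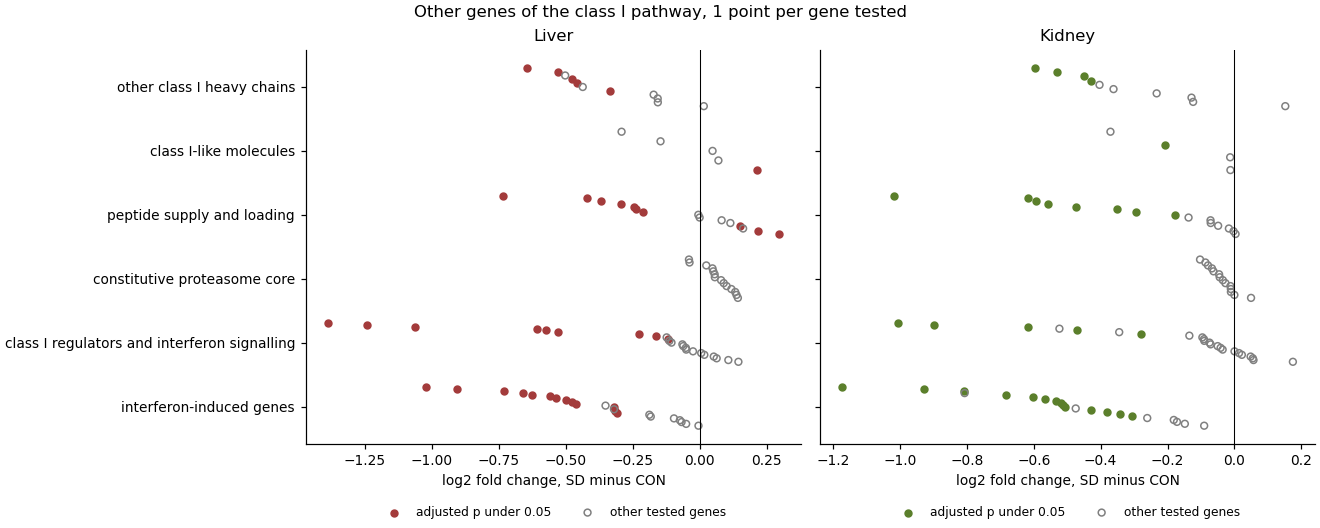
Log2 fold change, SD minus CON (x axis), of the tested pathway genes that are not among the 10, by list (y axis), in liver and kidney. Each point is a gene, filled where the adjusted p is under 0.05 and open otherwise. In both organs the filled points lie left of 0, except 4 in liver, and the constitutive proteasome core holds open points only.

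Markers of immune cells were lower in liver and kidney, and few were called in the brain regions. Over all genes tested, 8.8% were called lower in liver, 2.12% in kidney, 0.0303% in forebrain and 0.0% in cerebellum. In liver 10 of 10 leukocyte markers were called lower, and their summed level ran from 310 to 510 CPM in CON and from 198 to 295 in SD. In kidney 6 of 10 were called lower, with sums of 121 to 206 CPM in CON and 89.1 to 117 in SD. Of 12 markers of cytotoxic lymphocytes 10 were lower in liver, with sums of 28.5 to 48.8 CPM in CON and 8.92 to 23.3 in SD, and 7 in kidney, with 13.2 to 33.4 and 9.89 to 20.01. Markers of macrophages and microglia were lower for 8 of 10 in liver and 6 of 9 in kidney, those of dendritic cells for 3 of 5 in each, and those of endothelial cells for 1 of 10 in each. In each brain region 0 of 8 macrophage and microglia markers and 0 of 4 dendritic cell markers were called with edgeR. In forebrain 2 and 1 of them had an unadjusted p under 0.05, and in cerebellum 0 and 0. In forebrain Klrk1 was called lower among 3 tested lymphocyte markers, whose whole list summed to 0.359 to 2.97 CPM in CON and 0.193 to 1.52 in SD, and 0 of 6 leukocyte markers were called there or in cerebellum with edgeR (3 and 0 at an unadjusted p under 0.05). Choroid plexus markers varied widely in cerebellum, where their sum ran from 4.16 to 1893 CPM in CON with a median of 11.7, and from 5.82 to 3100 CPM in SD with a median of 713. With edgeR 0 of 4 were called there, and 0 had an unadjusted p under 0.05. All 6 hepatocyte markers were called higher in liver with TMM factors, where 18.2% of all genes were called in either direction, and 2 with library sizes alone. The part of these cells in the levels of the class I genes was not tested.

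Replicates of a group leaned the same way in several organs. For each condition and time the mean log2 CPM of the 10 genes (with 0.5 CPM added) in replicate 2 was taken from that in replicate 1, which does not use the contrast of SD and CON. Over the 12 groups these differences correlated between liver and kidney with Pearson's r = 0.73 and Spearman's rho = 0.74, and had the same sign in 11 of 12 groups. Without the 2 groups farthest from the median r was 0.81. Between forebrain and liver r was 0.71 (rho = 0.59), and between forebrain and kidney 0.60 (rho = 0.80).

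The pooled values partly follow the condition. In CON replicate 1 had the lower mean in 5 of 6 times in forebrain, liver and kidney and in 6 of 6 in cerebellum, and in SD in 4, 2, 3 and 4 of 6 in the same order of tissues. Within a condition (n = 6 times), r between liver and kidney was 0.54 in CON (rho = 0.31) and 0.82 in SD (rho = 0.71), and between forebrain and liver 0.85 in CON (rho = 0.14) and 0.55 in SD (rho = 0.20). These were computed after seeing the pooled values.

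For cerebellum 1 group decided the values with kidney and liver. The pooled r was 0.70 with kidney (rho = 0.52), 0.39 with forebrain (rho = 0.47) and 0.38 with liver (rho = 0.34). Without the CT8 control pair, which holds the library that stood apart, r was 0.30 with kidney, 0.12 with liver and 0.50 with forebrain. Gene by gene, the median r between liver and kidney was 0.64 for the 9 members expressed in all tissues and 0.15 for all 16981 genes compared. The titles number the replicates in each tissue but do not say that a number names an animal. The values are a description, with no p.

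**Figure D5:**
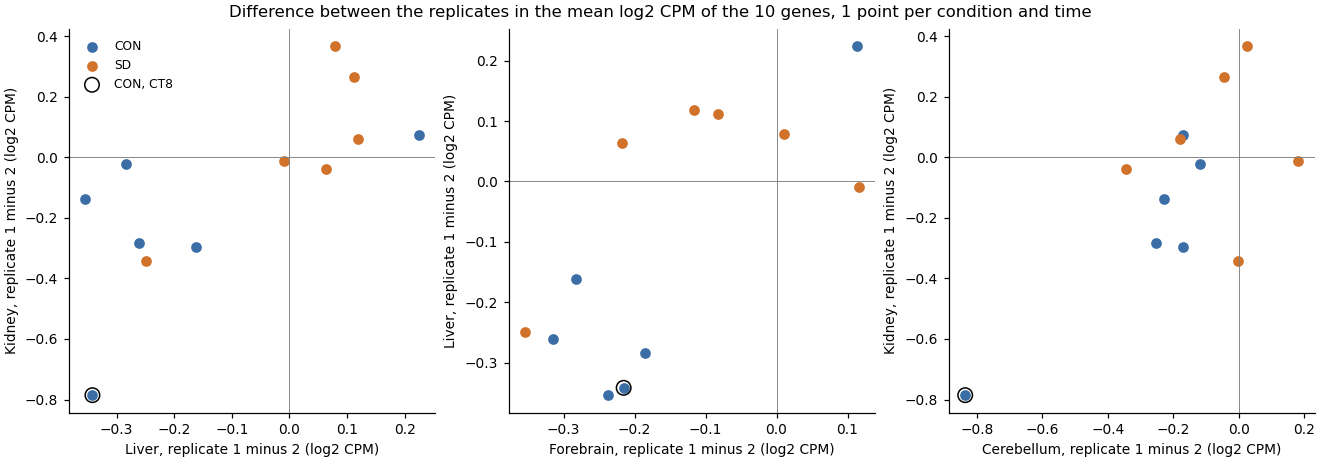
Difference of replicate 1 minus replicate 2 in the mean log2 CPM of the 10 genes, for 12 groups of condition and time, in pairs of tissues (liver and kidney, forebrain and liver, cerebellum and kidney, 1 on each axis). Each point is a group, blue for CON and orange for SD, and the CT8 control pair is ringed. The pooled r is 0.73, 0.71 and 0.70, most CON points lie at negative values, and in the panel of cerebellum and kidney the ringed point lies far from the rest.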

How the data were processed

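The authors deposited raw counts per gene. Per the labels and their methods, reads were trimmed with Trim Galore, aligned to GRCm38 with HISAT2, filtered with SAMtools at mapping quality 60 and counted by strand with featureCounts. Replicates were not pooled. Gene symbols came from GENCODE on the same build, for 49326 of 49585 Ensembl identifiers. Groups came from sample titles. The members and gene lists were chosen with earlier results of these data known, and the rule named all members and, per list, tissue and direction, the 3 called genes with the largest fold change. 1 gene that the rule names is not reported here.

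Counts were tested with edgeR 4.0.16 in R 4.3.3 (quasi-likelihood F-test, TMM, filterByExpr, Benjamini-Hochberg adjustment over all genes, threshold 0.05). SD was compared with CON in each tissue with time point as a factor, tissues among the 48 CON libraries, and rhythm within each set of 12 libraries. A fit of all 96 libraries tested whether condition effects differed between tissues. The SE was the absolute log2 fold change over the square root of F. Alternatives were library sizes alone, no filter, DESeq2 1.42.0, time as a factor, JTK_CYCLE, a replicate block and each library left out. The scripts were tested on simulated data. Python 3.11.15 with numpy 2.4.6, pandas 2.3.3, scipy 1.17.1 and matplotlib 3.10.9 served the rest. Depth limits low genes: 1 CPM is about 24.8 to 58.5 counts. No 2 libraries held identical counts.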

Additional observations from a re-analysis of the deposited data

Results flagged for a closer look

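In a fit over all 96 libraries the effect of sleep deprivation differed between the 4 tissues for 13 of 92 tested pathway genes that are not among the 10, where 5.07% of all genes did. Without the first CON cerebellum replicate of CT8 the count was 21, with 2157 genes in all against 1386. Ciita had the smallest adjusted p (4.3e-06), with log2 fold changes of -1.06 in liver, -0.90 in kidney, 0.22 in forebrain and -0.07 in cerebellum. Samhd1 (adjusted p = 0.000139) had -0.63 in liver, -0.34 in kidney and -0.08 in both brain regions. Dtx3l (0.00023), Parp9 (0.00628) and Stat2 (0.0023) fell in kidney, by 0.51, 0.52 and 0.47, and had -0.05, -0.07 and -0.11 in liver with TMM factors, where they were called lower with library sizes alone. Of the loading genes, the adjusted p was 0.00594 for Tap2 (-0.62 in kidney, -0.24 in liver), 0.0078 for Tapbp (-0.56 and -0.37) and 0.0168 for Psmb10 (-0.59 and -0.42), with brain values between -0.20 and 0.00. It was 0.00821 for Irf7 (-1.005 in kidney, -0.61 in liver) and 0.0348 for Bst2 (-0.93 and -0.31). Calr (0.00767), Canx (0.0331) and Jak2 (0.0466) also differed, with 0.30, 0.15 and -0.16 in liver against -0.14, -0.07 and 0.02 in kidney. The cause of these differences was not tested.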

How the results depend on the processing

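Of the results for single genes, 1 reversed: H2-Q6 from liver to kidney was 0.075 with library sizes alone. DESeq2 left the 127 results it gave for single members and named genes the same. For members in SD against CON this means a fold change that moved by less than the spread of replicates, not an unchanged call. With library sizes alone the liver held 53 pathway genes called lower and 0 higher, the tissue difference 2451 genes and 22 pathway genes, and the forebrain and cerebellum pair 6 members. The rhythm calls were then 3 genes in CON cerebellum, 12 in SD cerebellum, 2 members in CON liver and 0 in CON kidney. DESeq2 called 17 genes and 2 pathway genes lower in forebrain, 1 gene in cerebellum and 9 pathway genes higher in liver. Without the filter the calls were 1 pathway gene lower in forebrain, 1 gene in cerebellum, and 1043 genes and 1 pathway gene higher in kidney. The rhythm calls without the filter were 67 and 301 genes in CON and SD forebrain, 3 and 1940 in cerebellum, 3852 and 3857 in liver and 2391 and 1039 in kidney, with 1 member in SD cerebellum, 3 in CON liver, 3 in CON kidney and 2 in SD kidney. With time as a factor they were 0, 4, 0, 57, 2991, 1447 and 152 genes in CON and SD forebrain, CON and SD cerebellum, CON and SD liver and SD kidney, with 0 members in CON kidney. JTK_CYCLE called 0 genes in the brain sets, 193 and 1030 in CON and SD liver and 53 and 54 in kidney, with 0 members in CON liver, 1 in SD liver and 0 in CON kidney. Without the CT8 control pair, an alternative chosen after seeing the data, r was 0.12 for cerebellum and liver and 0.30 for cerebellum and kidney.

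Leaving out a library, which also let the filter keep more genes, gave 3 to 9 called genes, 3 to 5 members and 0 to 1 lower pathway genes in forebrain, with 3 members without CON CT8, CT12 or CT20 replicate 2 or SD CT24 replicate 2. In liver it gave 3021 to 4445 genes, 31 to 35 pathway genes lower and 2 to 11 higher, and in kidney 358 to 534 genes and 30 to 33 lower. For the rhythm, where leaving out a library was added after seeing the data, the calls were 928 to 1920 genes and 0 to 1 members in CON liver, 1531 to 3438 genes in SD liver, and 491 to 982 genes and 0 to 4 members in CON kidney, the 4 without CT8 replicate 2. Without the cerebellum library that stood apart there were 35 rhythmic genes in CON cerebellum and 2157 genes and 21 pathway genes with a tissue difference. Thop1 and Canx in liver lost the call without 6 and 3 of 24 libraries.

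Whether the replicate numbers pair the samples was not settled, and the main fits did not use them. Over genes, the differences between replicates of CON and SD of a tissue correlated between -0.36 and 0.46, with 11 of 24 over 0.1. Between tissues in CON they correlated between -0.05 and 0.18, with 2 of 36 over 0.1. With the replicate block kidney held 471 called genes and liver 3631, against 495 and 3592. The 127 results for single members and named genes stayed the same by the rule given above for DESeq2. In the brain H2-Q4, H2-Q6 and H2-Q7 rest on 1 to 112 counts per library.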

Other observations

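Over the 96 libraries, with the mean of each group removed, the non-member genes whose log2 CPM followed the mean of the 10 genes most closely were looked for among 12204 genes. Tapbp came first with r = 0.83, followed by C1qa (0.81), Laptm5 (0.81), Gbp2 (0.81), Unc93b1 (0.78), C1qb (0.77), Tmsb4x (0.77), Parp14 (0.76), Gbp5 (0.76) and Pitpnm1 (0.76). C1qa and C1qb encode chains of complement C1q made by macrophages and microglia, Laptm5 is a lysosomal protein of leukocytes, and Gbp2, Gbp5 and Parp14 are induced by interferon. The r of Tapbp was 0.95 in kidney, 0.90 in cerebellum, 0.88 in liver and 0.27 in forebrain. These values are a description. They come from groups of 2 replicates, and in cerebellum and kidney the members differed most between replicates in the CT8 control group (-0.84 and -0.79 log2 CPM). In cerebellum that group holds the library that stood apart. No value without these groups is given.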
